A study of Caenorhabditis elegans with 6 samples.

Results

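Major sperm protein (MSP) genes of the nematode Caenorhabditis elegans were followed as the rows of a microarray table whose annotated gene symbols all begin with msp-, ssp- or ssq- and a digit. These were 23 of the 26192 rows that carried a gene symbol, out of 29317 rows in all, and each row is a transcript cluster, a group of probes summarised as 1 locus. The 23 rows held 6 msp, 13 ssp and 4 ssq rows; 19 were annotated to 1 gene and 4 to several, with 26 genes in all. The msp genes are near-identical copies, so the gene that gave the signal of an msp row cannot be told apart from its copies. How far the ssp and ssq rows share signal with other genes was not checked. Each row is therefore described as a row.

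The samples were whole hermaphrodites of the wild-type strain N2, with 3 arrays from animals exposed to C-SPIONs and 3 from unexposed controls. C-SPIONs are superparamagnetic iron oxide nanoparticles with a citrate coat. Animals of both groups grew from the first larval stage on OP50 bacteria for 48 h until the fourth stage (L4) and were then moved at 20 °C for 24 h into M9 salt buffer diluted to 50%, with the particles at 500 µg/ml for the exposed group and with none for the controls. Nothing in the labels tells if replicates were grown as separate cultures, and p-values therefore cover the spread among the 3 arrays of a group, which may be technical. Values are log2 signals, so a difference of 1 is a doubling, and differences are C-SPION minus control. In RNA of whole animals, a different number of sperm, or of cells still making them, cannot be told apart from a different amount of msp RNA per cell.

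MSPs are small cytoskeletal proteins found in nematode sperm, where their filaments, and not actin, push the crawling cell forward. Sperm also release MSP as a signal, and it makes oocytes resume meiosis and the surrounding sheath cells contract, in part through the Eph receptor VAB-1. Hermaphrodites make sperm for a limited time late in larval life and then switch to oocytes, and msp genes are transcribed while sperm are being made. The ssp and ssq genes are sperm-specific families of classes P and Q, and SSP proteins carry a domain related to MSP. The msp genes were alike in size: all 9 named by the rows have an annotated span of 384 bases in the RefSeq table of assembly WBcel235, while the 13 ssp genes span 324 to 982 bases and the 4 ssq genes 1060 to 1418.

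Most rows of the family had a higher signal in the C-SPION arrays, and no row passed the test. The difference was positive in 22 of the 23 rows, where 53.3% of all tested rows were higher. The median difference was +0.73 over the 23 rows, a 1.66-fold higher signal, beside +0.04 over all tested rows. With limma 0 of the 23 rows had an adjusted p under 0.05, as did 0% of all tested rows, and the adjusted p of the family ran from 0.327 to 0.926. Unadjusted p was under 0.05 for 3 rows in the higher direction, where 5.22% of all tested rows were, and for 1 row in the lower direction, where 7.30% were. The 3 arrays of each group lay apart in 1 higher row, against 9.40% of all tested rows, and in 1 lower row, against 9.24%. A share of 1 in 23 does not exceed that background in either direction.

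**Figure D1:**
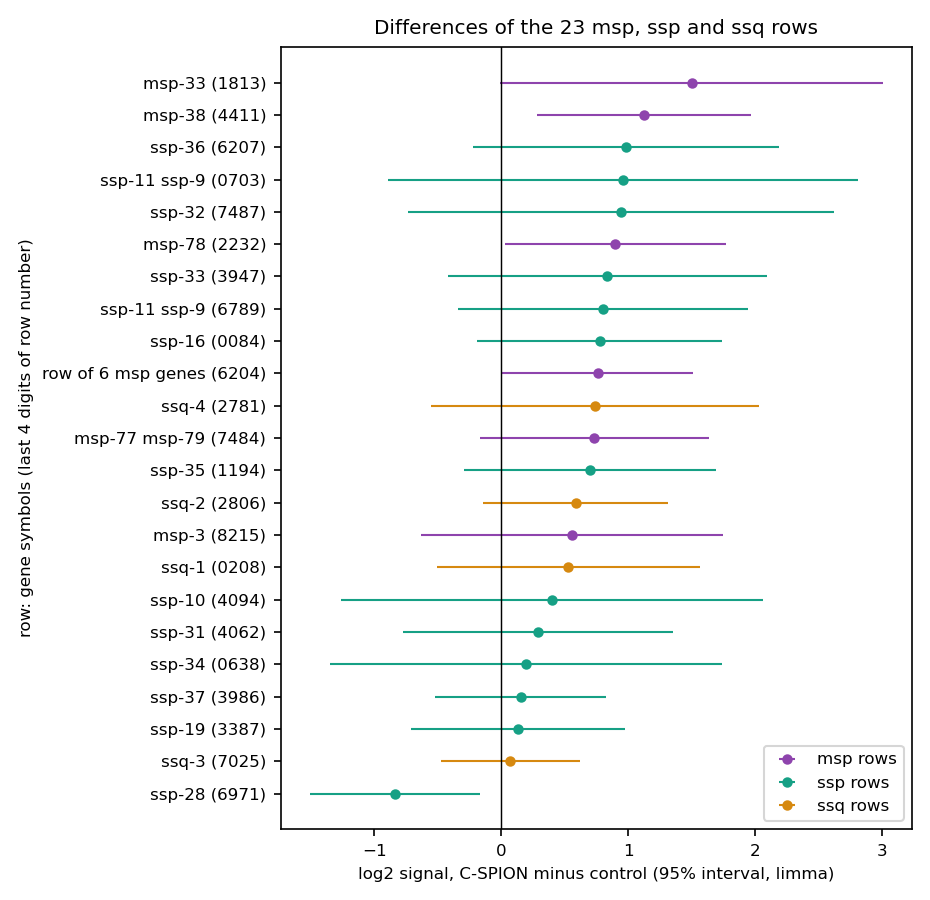
Difference in log2 signal, C-SPION minus control, for each of the 23 rows (points), with 95% intervals from limma (bars; 3 arrays per group), coloured by family. Of the 23 points, 22 lie right of 0 and ssp-28 lies left of it; the intervals of msp-38, msp-78, the row of 6 msp genes and ssp-28 leave out 0.

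The msp rows, for the proteins that build the sperm's motile skeleton, were all 6 higher, with a median of +0.83. The row of msp-38 (18554411) read 7.63, 8.37 and 8.81 in C-SPION 1 to 3, against 6.88, 6.95 and 7.61 in control 1 to 3. Every C-SPION array of msp-38 was above every control, C-SPION 1 by little over control 3. The difference was +1.12, or 2.18-fold (95% interval 0.28 to 1.96, unadjusted p = 0.0159 and adjusted p = 0.327 by limma).

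The row of msp-78 (18542232) read 8.18, 9.45 and 9.20 in the C-SPION arrays, against 7.76, 7.95 and 8.42 in the controls. C-SPION 1 lay among the controls and the other 2 exposed arrays stood above them. Its difference was +0.90, or 1.87-fold (95% interval 0.03 to 1.77, unadjusted p = 0.0447 and adjusted p = 0.389 by limma). The row shared by msp-77, msp-79, msp-78, msp-81, msp-56 and msp-10 (18556204) read 8.49, 9.22 and 9.21 with C-SPIONs, against 7.76, 8.22 and 8.66 without. The pattern repeats that of msp-78, one of its 6 annotated genes, so the 2 rows are not independent. The difference of the shared row was +0.76, or 1.69-fold (95% interval 0.01 to 1.51, unadjusted p = 0.0477 and adjusted p = 0.395 by limma).

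The largest difference of the family was that of msp-33 (row 18501813), with 5.43, 7.21 and 7.41 in C-SPION 1 to 3, against 4.53, 4.79 and 6.23 in control 1 to 3. Both groups of this row spread widely, over about 2 units with C-SPIONs, and control 3 was above C-SPION 1. Its difference of +1.50, or 2.83-fold, had a 95% interval of -0.01 to 3.01 (limma adjusted p = 0.401). The row of msp-77 and msp-79 (18537484) read 6.05, 6.70 and 7.08 with C-SPIONs, against 5.21, 6.09 and 6.33 in controls, which puts it at +0.73 with a limma adjusted p of 0.469 (95% interval -0.17 to 1.64). Here C-SPION 1 lay below control 2 and control 3. The last msp row, msp-3 (18498215), read 6.22, 7.81 and 6.43, against 5.49, 6.61 and 6.68, and only C-SPION 2 was above the controls. It stood at +0.56 (95% interval -0.63 to 1.75).

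**Figure D2:**
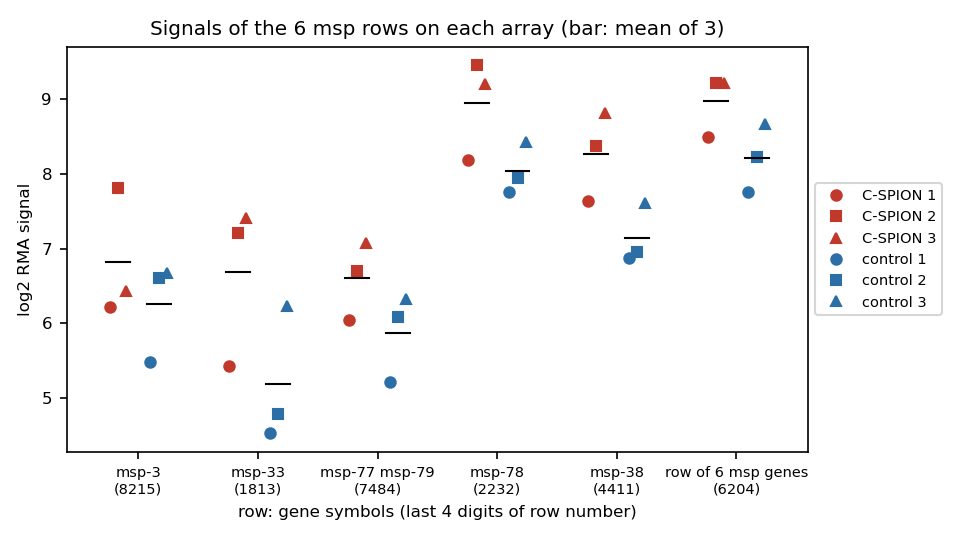
Log2 signal of the 6 msp rows on each array, with the C-SPION arrays (red) left of the controls (blue), a marker shape per replicate number, which does not pair the samples, and a bar at the mean of 3. C-SPION 1 is the lowest C-SPION array and control 3 the highest control in each of the 6 rows; signals of different rows come from different probes and cannot be compared.

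The ssp rows were higher in 12 of 13, with a median of +0.70. The row of ssp-36 (18556207) read 3.25, 5.13 and 3.55 in C-SPION arrays, against 2.48, 3.11 and 3.39 in controls. Its difference of +0.98, or 1.98-fold, went with a C-SPION 2 well above the other arrays (95% interval -0.22 to 2.19, limma adjusted p = 0.468). The row of ssp-32 (18537487) read 2.12, 4.15 and 4.97, against 2.78, 2.19 and 3.44, so that C-SPION 1 was below every control and the other 2 exposed arrays were above every control. It stood at +0.94 (95% interval -0.74 to 2.62, limma adjusted p = 0.612).

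A pair of rows was annotated to ssp-11 and ssp-9 together. The first (18550703) read 4.19, 7.12 and 7.30 with C-SPIONs, against 5.28, 4.97 and 5.48 without. Its difference was +0.96 with a limma adjusted p of 0.643 (95% interval -0.89 to 2.81). The second (18556789) read 5.51, 7.20 and 6.91, against 5.56, 5.32 and 6.33, which puts it at +0.80 with a limma adjusted p of 0.526 (95% interval -0.34 to 1.95). In the first row C-SPION 1 lay more than 1 unit below the control mean while C-SPION 2 and 3 lay about 2 units above it. In the second row C-SPION 1 was within the range of the controls and the other 2 exposed arrays were above it.

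The only lower row was ssp-28 (18526971), with 6.26, 6.37 and 6.77 in C-SPION 1 to 3, against 7.05, 7.04 and 7.82 in control 1 to 3. The groups lay apart. The difference was -0.84, or 0.56-fold (95% interval -1.51 to -0.16, unadjusted p = 0.0216 and adjusted p = 0.339 by limma). Its annotated span of 982 bases is the longest of the 13 ssp genes, where the most common span, of 330 bases, is shared by 5.

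The 4 ssq rows were all higher, with a median of +0.56. The row of ssq-2 (18542806) read 3.99, 5.03 and 4.95 with C-SPIONs, against 4.18, 3.95 and 4.08 in controls, and stood at +0.59 with a limma adjusted p of 0.474 (95% interval -0.14 to 1.32). C-SPION 1 was at the level of the controls, which differed among themselves by an SD of 0.12. The row of ssq-4 (18542781) had the opposite order within the exposed group, with 7.26, 6.27 and 6.75 in C-SPION 1 to 3, against 6.98, 4.83 and 6.25 in the controls. Its difference of +0.74 rested on the low control 2 (95% interval -0.55 to 2.03, limma adjusted p = 0.606), and without that array it was +0.145.

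Beside msp-3, 10 further rows complete the family, and they were named for completeness after their values had been seen. Near or above the family median were ssp-33 at +0.84, ssp-16 at +0.78 and ssp-35 at +0.70. Below it were ssq-1 at +0.53, ssp-10 at +0.40, ssp-31 at +0.29, ssp-34 at +0.19, ssp-37 at +0.15, ssp-19 at +0.13 and ssq-3 at +0.07. Their adjusted p by limma ran from 0.473 for ssp-16 to 0.926 for ssp-34. Of these, ssp-37 had 8.99, 9.31 and 9.34 with C-SPIONs, against 9.12, 8.55 and 9.51 in controls (95% interval -0.52 to 0.82), and ssq-3 had 7.69, 7.55 and 7.14, against 7.39, 7.18 and 7.59 (95% interval -0.47 to 0.62). In both rows the groups overlapped. The rows of ssp-10 and ssp-34 were highest in control 3, at 6.08 and 5.93, above each of the C-SPION arrays.

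Leaving out single arrays turned the direction of 6 of these small differences. Without control 2, ssp-10 was at -0.18, ssp-34 at -0.14, ssp-37 at -0.10, ssp-19 at -0.06 and ssq-3 at -0.03. Without control 1 ssp-34 was at -0.185, without C-SPION 1 ssq-3 was at -0.04, without C-SPION 2 ssp-19 was at -0.13, and without C-SPION 3 ssp-31 was at -0.23 and ssp-34 at -0.07. For the other 17 rows no left-out array turned the direction, but 11 of them became smaller by over 1.5 times without 1 array. Without C-SPION 2, ssq-1 was at +0.02, msp-3 at +0.065, ssp-36 at +0.41 and the second row of ssp-11 and ssp-9 at +0.47. Without C-SPION 3, ssp-32 was at +0.33, the first row of ssp-11 and ssp-9 at +0.41, ssp-35 at +0.45 and ssp-16 at +0.46. Without control 1, ssp-33 was at +0.33 and the row of msp-77 and msp-79 at +0.40, and ssq-4 was named above. The rows of msp-33, msp-38, msp-78, the 6 msp genes, ssp-28 and ssq-2 did not shrink by that much without any 1 array.

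**Figure D3:**
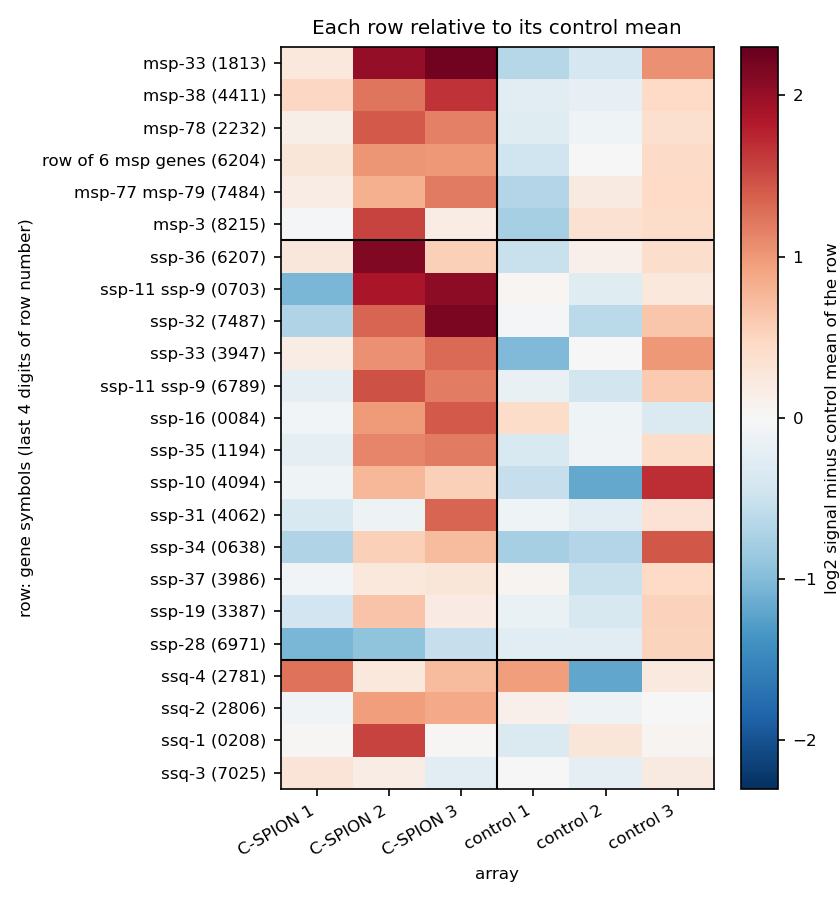
Log2 signal of each of the 23 rows on each array minus the mean of that row's 3 controls, ordered by family and difference, with C-SPION arrays left of the controls. C-SPION 2 and 3 are above the control mean in 21 rows each and C-SPION 1 in 10, while control 3 is above it in 22.

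The arrays of a group also differed among themselves. Relative to the control mean of each row, the median over the 23 rows was -0.06, +1.01 and +1.00 in C-SPION 1 to 3, against -0.27, -0.21 and +0.45 in control 1 to 3. C-SPION 1 was the lowest exposed array, or tied for it, in 21 rows, where it was so in 11425 of the 26192 tested rows. Control 3 was the highest control in 19 rows, where it was so in 9564 of all tested rows. C-SPION 2 and 3 were both above every control in 13 rows, where 20.5% of all tested rows had this, and C-SPION 1 was above every control in 3 rows, where it was so in 26.9%. Over all tested rows the same medians ran from -0.01 to +0.04. The median SD between arrays of a group was larger in the 23 rows than over all tested rows, at 0.67 against 0.30 in C-SPION arrays and at 0.47 against 0.30 in the controls.

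Counts that depend on single arrays moved accordingly. Without C-SPION 1 the median difference was +1.00. Of the 23 rows, 12 then had an unadjusted p under 0.05, against 15.8% of all tested rows, and the groups lay apart in 14, against 36.3%. In that comparison 63 of all tested rows passed by limma, but 0 of the 23; the nearest was the first row of ssp-11 and ssp-9 at +1.97 (adjusted p = 0.0564). Without control 3 the median was +0.91, with 7 rows under 0.05 (12.0% of all tested rows) and 8 rows apart (30.6%). Without C-SPION 2 it was +0.49, with 1 row under 0.05 (9.32%) and 2 apart (27.5%), and without C-SPION 3 it was +0.46, with 1 row under 0.05 (7.59%) and 2 apart (25.1%). Without control 1 it was +0.53, with 2 rows under 0.05 (10.3%) and 4 apart (28.4%), and without control 2 it was +0.66, with 1 row under 0.05 (9.02%) and 2 apart (26.8%). The count of higher rows stayed between 17, without control 2, and 22.

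Signal strength differed between the rows. In 10 of the 23 rows the mean signal was under the median of all tested rows, 8 of them ssp and 2 ssq, and none of the msp rows was. The median difference of these 10 was +0.56, with all 10 higher, beside +0.76 for the 13 rows at or above that signal, of which 12 were higher. Detection calls were not used here, so whether the dimmer rows are above background is not known.

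Many of these genes lie side by side. In the order of protein-coding genes in the same RefSeq table, ssp-36, msp-79 and msp-78 follow each other directly, as do msp-77 and ssp-32, msp-81 and msp-10, ssp-10 and ssq-1, and ssp-9, ssq-2 and ssp-11. The 11 rows whose genes all have another gene of the family within 10 positions had differences from +0.40 to +0.98, with a median of +0.76. The 12 rows whose genes have none among the 26 genes of the 23 rows ran from -0.84 to +1.50, with a median of +0.425. Other msp genes, named only by the mixed rows described below, were not counted as neighbours. A row placed among the 12 may therefore lie beside such a gene. The comparison is a description, since several of the 11 rows also share genes.

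The symbol rule leaves out 28 further rows whose annotation mixes msp genes with at least 1 gene without an msp name, 3 to 20 symbols per row. In these mixed rows, 25 of 28 were higher, beside 53.3% of all tested rows, and the median was +0.815. Unadjusted p by limma was under 0.05 for 10 rows in the higher direction and 0 in the lower, against 5.22% and 7.30%. By limma 0 of them passed (smallest adjusted p = 0.316). C-SPION 2 and 3 were both above every control in 24 of the 28 (20.5% of all tested rows), and C-SPION 1 in 8 (26.9%). Of the 21 mixed rows at or above the median signal of all rows, these counts were 21 and 5. Of the 7 dimmer mixed rows, 4 were higher and these counts were 3 and 3. All 3 lower rows were among these 7. A pair of the 28 rows held the same values on every array. Their position on the arrays was that of the msp rows, with medians of +0.15, +1.23 and +0.98 in C-SPION 1 to 3, against -0.22, -0.12 and +0.37 in the controls. Of the 28, 19 name a gene that the 6 msp rows also name and 9 do not; the copies are near-identical, so how far the rows share signal is not known.

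Other genes of sperm were mostly higher as well. Of 39 spe, fer and nspd rows, 31 were higher and 0 passed by limma, with a median of +0.31. Of these rows 27 had a mean signal under the median of all tested rows, and without such dim rows the median was +0.72, beside +0.76 for the family under the same filter. Over all 39, the medians by array were +0.11, +0.32 and +0.35 in C-SPION 1 to 3, against +0.01, -0.06 and -0.02 in the controls. Control 3 thus did not stand out on the median, but single rows differed. It was the highest control in 15 of the 39 rows and the lowest in 13. The controls read 8.41, 8.78 and 9.55 in nspd-1, and 5.95, 6.27 and 5.59 in spe-39, 2 rows picked after their values had been seen. The row of spe-11, a paternal factor needed by the embryo, read 5.61, 6.58 and 7.02, against 4.65, 5.28 and 5.29, a difference of +1.33 (limma adjusted p = 0.306). The row of spe-43, a gene of sperm activation, was at +0.77 and that of nspd-10, of a nematode-specific peptide family, at +1.19. These 3 rows, spe-11 included, had the smallest unadjusted p by limma of the 39, and in each the groups lay apart. Over the 39 rows the groups lay apart in 9 higher and 0 lower rows, against 9.40% and 9.24% of all tested rows. Whether the msp rows differ from the other sperm genes was not tested.

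A list of genes that handle MSP, MSP-domain relatives and transcription factors was measured in 12 of 21 symbols. Of these rows 10 were higher and 0 passed by limma, with a median of +0.30. Of the 12 rows, 8 are among the 39 above and are counted in both. The row of gsp-3, a protein phosphatase of sperm that acts on MSP dynamics, read 5.60, 6.48 and 6.21 with C-SPIONs, against 4.50, 4.75 and 5.68 in controls, and stood at +1.12 with a limma adjusted p of 0.337 (95% interval 0.24 to 2.00). The vesicle trafficking gene spe-39 was at +0.55 and spe-10, a palmitoyltransferase of the organelle that carries MSP fibres, at -0.37. Among the rest, spe-6, a casein kinase needed to pack MSP into fibrous bodies, was at +0.31, vpr-1, which encodes an MSP-domain protein of other tissues, at +0.29, spe-44, a transcription factor of the sperm programme, at -0.14 and elt-1, a GATA factor, at +0.43; these 4 were named after their values had been seen.

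The genes through which oocytes and sheath cells answer MSP stood on both sides of 0, with 9 of 16 measured rows higher, 7 lower and 0 past the threshold by limma. Their median was +0.185, or +0.036 without control 3, +0.10 without C-SPION 2 and +0.28 without control 2. The row of kin-1, the catalytic subunit of protein kinase A, read 6.64, 6.62 and 6.72 with C-SPIONs, against 7.17, 7.85 and 7.48 in controls, a difference of -0.84 (limma adjusted p = 0.30). The gap junction gene inx-22 was at +0.83 and the kinase gene unc-43, the CaMKII homologue, at -0.82. These 3 rows had the smallest unadjusted p by limma of the 16, and in each the groups lay apart. Over the 16 rows the groups lay apart in 5 higher and 3 lower rows, against 9.40% and 9.24% of all tested rows. Unadjusted p by limma was under 0.05 in 5 higher and 2 lower rows, against 5.22% and 7.30%. The receptor gene vab-1, named after its value had been seen, was at +0.54. Many of these genes also act outside the germ line.

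Genes of sperm fate and of the switch to oocytes were higher in all 15 measured rows, with 0 past the threshold by limma and a median of +0.39. They included nos-3, an RNA-binding regulator of the switch, at +0.70 (limma adjusted p = 0.302), fbf-2, a Pumilio-family repressor, at +0.72 and her-1, a secreted signal of male fate, at +0.60. Among these 15 rows control 3 was the lowest control in 11.

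Markers of other cells differed between the groups too, and their part in the msp values was not tested. Germ line markers of mitosis and meiosis were higher in 10 of 10 rows with a median of +0.82. Oocyte markers, 2 of them among the 16 rows of genes that answer MSP, were higher in 12 of 14 with +0.70. Their mean log2 signals were 7.67 to 8.06 in C-SPION arrays against 6.62 to 7.45 in controls for the germ line markers, and 8.31 to 8.65 against 7.51 to 8.06 for the oocyte markers. Sperm markers other than the MSP family, 9 of them among the 39 rows above, were higher in 10 of 13, with +0.56 and with 4.96 to 5.50 against 4.72 to 4.90, and embryo markers in 10 of 10, with +0.445 and with 5.15 to 5.81 against 4.77 to 5.24. Neuron markers were lower in 10 of 10 with -1.06, at 7.24 to 7.79 against 8.13 to 8.79, and muscle markers in 7 of 8 with -0.57, at 7.81 to 8.18 against 8.29 to 8.84. Intestine markers were higher in 5 of 9 and epidermis markers in 5 of 8, with medians of +0.07 and +0.20, at 9.07 to 9.27 against 9.15 to 9.32 and 6.54 to 6.97 against 6.69 to 6.95.

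The place of control 3 varied between the gene sets. It was the highest control in 6 of 6 msp rows, 12 of 13 ssp rows, 1 of 4 ssq rows, 22 of 28 mixed rows and 15 of 39 spe, fer and nspd rows, and the lowest control in 10 of 10 germ line marker rows and 11 of 14 oocyte marker rows. C-SPION 1 was above every control in 1 of 6 msp rows, 0 of 13 ssp rows, 2 of 4 ssq rows, 9 of 10 germ line marker rows and 12 of 14 oocyte marker rows, beside 26.9% of all tested rows. These differences between sets were not tested.

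**Figure D4:**
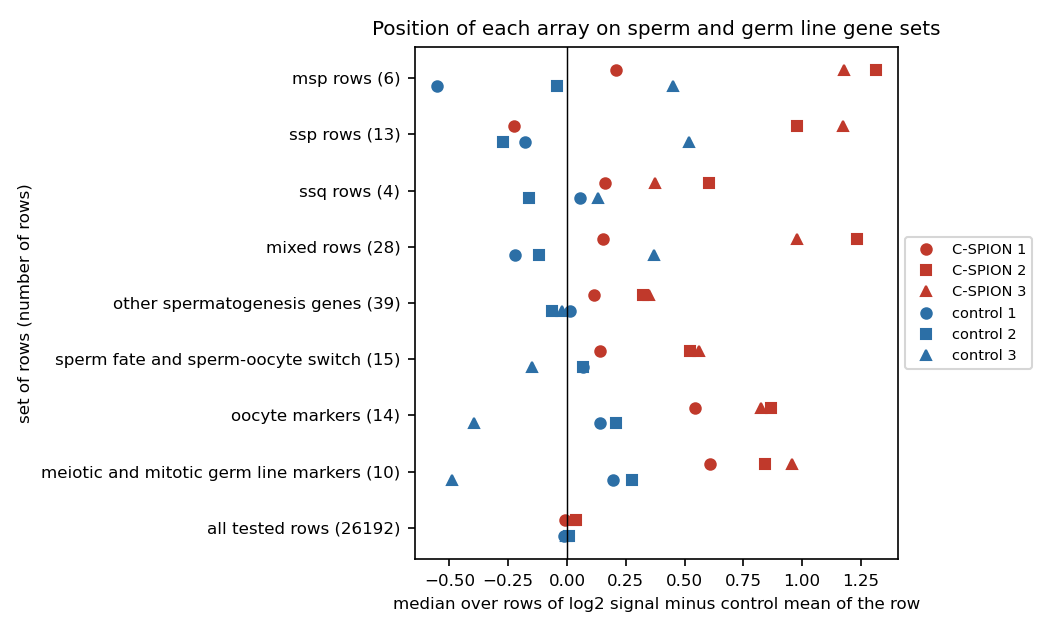
Median over the rows of each set of the log2 signal minus the row's control mean, by array (C-SPION red and drawn above the controls, blue; marker shape by replicate number, which does not pair the samples). On msp, ssp and mixed rows C-SPION 1 lies below control 3; on oocyte and germ line markers control 3 is the lowest array and the 3 C-SPION arrays lie right of the controls.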

How the data were processed

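Whole-animal RNA (200 ng) was amplified and labelled for 1-colour Affymetrix arrays, per the labels' protocols. The authors deposited log2 signals, 1 for each transcript cluster and array. Per the submitters' processing notes they used Affymetrix Expression Console and RMA, which corrects background, normalises between arrays and summarises probes. Versions and the array's genome build were not given in the sources used here. RMA makes values relative within an array and compresses differences near background. The number of arrays limits the precision.

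Groups were taken from the sample titles; control 3 carries the source name of control 2. Probe symbols came from the platform annotation, which names 1 gene for 25546 rows, several for 646 and none for 3125. Genes of related lists were updated through RefSeq identifiers (25495 of the single-gene rows matched). The 26192 named rows were fitted together with limma 3.58.1 in R 4.3.3 (group only, two-sided, Benjamini-Hochberg, threshold 0.05). The fit was also run on simulated rows with independent errors. That run required only that the mean estimated difference be close to the true one, so it does not tell how many changed rows would pass. Members and lists were chosen with earlier results of these data known. Named rows were, among rows with 1 symbol, the 5 largest differences in each direction (only 1 row was lower). To these came the 3 smallest p of the family, up to 4 rows with several symbols, and 2 ssp and 2 ssq rows by smallest p. Of each related list 3 genes were named by smallest p. Arrays correlated at 0.935 to 0.968. Alternatives were other normalisations, filters, weights, row sets, a replicate block and leaving out each array. No sequences were used here.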

Additional observations from a re-analysis of the deposited data

How the results depend on the processing

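No row of the family passed by limma under any of the 17 alternatives. The threshold was 0.1 in 1 of them, on the reported fit, and 0.05 in the others. In the reported fit the smallest limma adjusted p of all tested rows was 0.201. The threshold of 0.1 and the row sets drawn from that fit could therefore pass no row, and they add no check. Without C-SPION 1 the smallest limma adjusted p of the family was 0.0564, under 0.1 but not under 0.05. The median difference stayed positive in all 16 alternatives that give one, from +0.46 to +1.00. Not all of these are separate checks. The replicate block, the unnamed rows and another variance estimate leave the row differences as they were, so their median of +0.73 was fixed. The row sets reuse the same row differences. With single arrays left out, the count of rows with an unadjusted p under 0.05 was 1 to 12, that of rows whose groups lay apart 2 to 14, and that of higher rows 17 to 22. The count under 0.05, 4 as reported, was 13 with array weights, and the cause was not tested. For weights, the replicate block and the other normalisations, the shares of all tested rows under 0.05 or apart were not counted. The family's counts under them therefore have no background beside them. The count of rows apart, 2 as reported, was 1 after quantile normalisation and 1 after centring each array on its median. Centring moved the median of all tested rows to +0.13 and that of the family to +0.82. By construction the sets differ in size. Leaving out dim rows kept 13 rows, 12 of them higher, and the msp rows alone gave 6 higher and 1 apart. Adding the mixed rows, a choice made after seeing the data, gave 47 higher, 14 under 0.05 and 7 apart of 51, both directions together. Of all tested rows in the reported fit, 53.3% were higher. Under 0.05 by limma were 5.22% in the higher and 7.30% in the lower direction, and 9.40% and 9.24% lay apart. With the replicate number as a block 7 rows had p under 0.05. Numbers pair the samples weakly if at all: deviations of same-numbered arrays correlated at 0.222, 0.203 and 0.00786, and C-SPION 3 did not correlate best with control 3.

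With single arrays left out, ssp-19 ran from -0.13 to +0.42, ssp-31 from -0.23 to +0.61, ssp-37 from -0.10 to +0.38, ssp-10 from -0.18 to +1.26, ssp-34 from -0.185 to +0.905 and ssq-3 from -0.042 to +0.23. No related gene turned direction in the 153 refits of named ones. Those genes were chosen by smallest p, which favours a steady direction, so they cannot be compared with the family rows in this. Groups of 3 arrays are too small for a test of single outlying samples, and signal over background is unknown.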
